A study of Mus musculus with 4 samples.

Results

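The genes of the transforming growth factor beta (TGF-beta) and bone morphogenetic protein (BMP) pathways were examined in mouse fibroblasts under reprogramming, as 44 of the 22369 genes of the deposited table. They were taken by symbol from a list of ligands, receptors, SMADs, targets and antagonists, and all 44 were found. By role they comprised 19 genes of the TGF-beta and activin arm, 22 of the BMP arm and 3 that serve both. The 4 RNA sequencing libraries came from OG2MEF cells, embryonic fibroblasts that carry a green fluorescent reporter of Oct4, collected on day 9. Of these, 2 were labelled SOX17 WT and 2 SOX17-V118M, a missense form of this endodermal transcription factor. The protocol lists pMX retroviruses for Sox2 and Klf4 given with OCT4, SOX17, SOX17-V118M or GFP, followed by medium with serum, leukemia inhibiting factor and vitamin C, for both groups alike. Which mix went into each library is not stated, nor is any sorting of infected cells, and serum itself contains ligands of these pathways.

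TGF-beta and activin ligands bind paired serine/threonine kinase receptors that phosphorylate SMAD2 and SMAD3, whereas BMP ligands act through related receptors on SMAD1 and SMAD5. Both sets of SMADs join SMAD4, enter the nucleus and switch on targets, among them their own inhibitors SMAD6, SMAD7 and SKIL. In fibroblasts TGF-beta maintains the mesenchymal state and is a known barrier to reprogramming. BMP signalling favours the mesenchymal-to-epithelial transition early in reprogramming, and ID proteins downstream of it hold back differentiation of mouse embryonic stem cells.

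Promoter sequences are shown for 3 members to whose values the account below returns: Smad6, the BMP arm gene with the smallest p, Tgfb2, a ligand whose groups did not overlap, and Id2, a BMP target that differed most between the V118M libraries among the ID genes. Each runs 5′ to 3′ from 250 bases before the RefSeq start to the first 10 transcribed bases (RefSeq, GRCm38.p6), all on the minus strand, and the genes were chosen after their values and motif matches were seen. Capitals mark SMAD motifs searched. Smad6 lies at chr9:64022050-64022309, Tgfb2 at chr1:186705980-186706239 and Id2 at chr12:25096083-25096342.
Smad6: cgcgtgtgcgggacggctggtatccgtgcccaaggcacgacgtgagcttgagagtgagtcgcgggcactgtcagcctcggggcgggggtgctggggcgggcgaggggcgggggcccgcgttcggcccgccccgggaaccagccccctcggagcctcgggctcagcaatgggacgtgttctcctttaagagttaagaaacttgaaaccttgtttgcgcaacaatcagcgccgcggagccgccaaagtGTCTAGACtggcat
Tgfb2: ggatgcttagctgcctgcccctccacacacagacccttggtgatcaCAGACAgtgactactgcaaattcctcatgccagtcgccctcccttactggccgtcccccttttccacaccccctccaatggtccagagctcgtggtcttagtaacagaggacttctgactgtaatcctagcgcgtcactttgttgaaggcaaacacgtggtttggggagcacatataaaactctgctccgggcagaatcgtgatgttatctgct
Id2: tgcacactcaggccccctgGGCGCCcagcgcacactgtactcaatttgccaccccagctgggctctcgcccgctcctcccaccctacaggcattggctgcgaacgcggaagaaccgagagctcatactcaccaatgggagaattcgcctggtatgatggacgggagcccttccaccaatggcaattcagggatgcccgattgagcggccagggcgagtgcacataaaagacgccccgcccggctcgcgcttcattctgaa
The capitals in Smad6 are GTCTAGAC, a palindrome of the SMAD core GTCT, which spans the start from position -4 to position 4. The capitals in Tgfb2 are CAGACA, the core of the CAGA box bound by SMAD3 and SMAD4, at positions -204 to -199. The capitals in Id2 are GGCGCC, a GC-rich SMAD element of BMP targets, at positions -231 to -226. In the 300-base windows given by RefSeq, on both strands, 30 members had 38 windows. GTCTAGAC was in 1 of these 38 against 0.213% of all 32851 windows, CAGACA in 7 against 21%, and GGCGCC in 11 against 11.9%. The composite GGCGCCNNNNNGTCT, which holds the GC-rich element and the core GTCT, was in 0 against 0.0731%. The starts of Smad6 and Tgfb2 were those of the deposited transcripts, while the RefSeq start of Id2 lies 1048 bases downstream of the deposited one. By gene, GTCTAGAC was in 1, CAGACA in 6 and GGCGCC in 10 of the 30 members. Overlapping Smad5 windows each held GGCGCC, and a Ltbp1 window with CAGACA lay 173213 bases from the deposited start. A match describes letters and not binding.

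The values are normalized whole numbers with the same distribution in every library, so depth is unknown and no counting interval can be given. They summed to between 12855482 and 12859613 per library. V118M replicate 2 stood apart, with a Pearson correlation of 0.954 to 0.964 with the other libraries, which correlated with each other at 0.986 to 0.99 (12661 genes whose log2 values averaged 5 or more). All 12 listed fibroblast markers were present, and their summed value was 138797 and 144903 in the wild-type libraries, compared with 138923 and 115746 in the V118M ones. The low sum of V118M replicate 2 came with Col3a1, at 61186 in the other 3 libraries and 29496 there. No fibroblast marker was lower in both V118M libraries than in both wild-type ones, and 3 were higher. The leukocyte list of 8 summed to 619 and 387 against 246 and 297. Only Ptprc, at 165 and 58 against 30 and 0, was lower without overlap, and 0 were higher. The keratinocyte list of 7 summed to 7289 and 6658 against 8601 and 10635, most of it Krt14. Of these 7, 3 were higher without overlap, such as Krt5 at 246 and 199 against 664 and 731, and 2 were lower, such as Dsg3 at 370 and 314 against 304 and 161. The epithelial list of 8 summed to 18910 and 20250 against 18883 and 19845, with 4 markers (Cdh1, Krt8, Cldn6 and Ocln) lower without overlap and 0 higher. The endothelial list of 6 summed to 1174 and 1227 against 1100 and 976, nearly all of it Tek. Without overlap 4 of these were lower and 1 higher, and Emcn was at 0 in every library. The pluripotent list of 10 summed to 183 and 240 against 316 and 296. Of these 10, 2 were higher without overlap (Tdgf1 and Utf1) and 0 lower, while Nanog was at 1 and 8 against 6 and 6. Over all genes tested, 14.8% were lower and 13.2% higher without overlap. The part of these cell types in the results below was not tested, and in whole cultures fewer cells of a type and less RNA per cell cannot be told apart.

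V118M was compared with wild-type SOX17 across all genes. In both arms most genes stayed close to their wild-type values. The members with the smallest p, Skil and Smad6, were both lower in V118M, and both encode inhibitors of the pathways. The other inhibitors and antagonists did not share a direction, with log2 fold changes from -0.35 (Smad7) to 0.28 (Bambi). None of the 44 members passed limma's test at an adjusted p of 0.05 (lowest adjusted p = 0.951), where 0% of the 19547 genes tested passed. At an unadjusted limma p under 0.05 there were 2 members, both lower, or 4.55% of the members against 4.01% of all genes tested (2.31% higher and 1.7% lower). All 44 passed the filter on low values. The log2 fold change, V118M less wild type after adding 1 to each value, ranged from -0.47 to 0.56. It exceeded 0.5 in size in 1 member, Bmp7, against 20.8% of all genes. Among the 12661 genes whose log2 values averaged 5 or more, 1009 did so. With the tied gene Fstl1 left out, the 95% interval lay within 1 log2 unit (2-fold) either way for 38 of 43 members, or 88.4%. The exceptions were Inhba, Msx1, Bambi, Bmp7 and Chrd. The same share was 51.4% of all genes tested and 78.9% of those 12661 more abundant genes. Nothing in the labels says whether the replicates came from separate cultures, so these p-values reflect only how far the given libraries differ, possibly for technical reasons. An exact permutation test of 2 against 2 libraries cannot go below a two-sided p of 0.333.

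**Figure D1:**
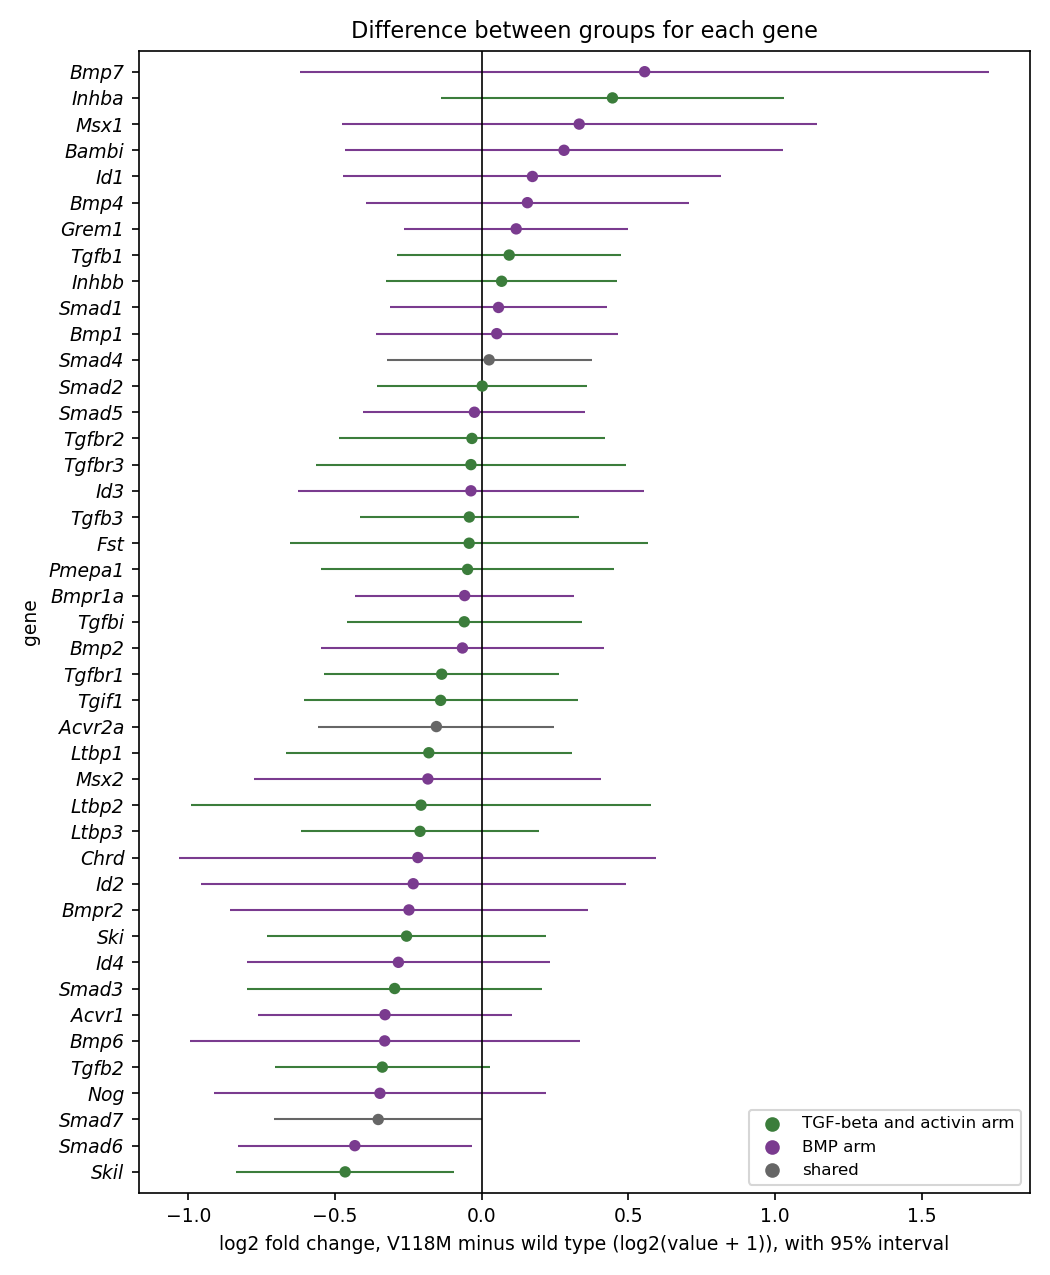
Log2 fold change of each gene, V118M less wild type after adding 1 to each value (horizontal axis), with points for limma's estimate and bars for its 95% interval, coloured by arm, Fstl1 left out because its 4 values are tied. The intervals of Skil and Smad6 lie below 0, that of Smad7 just reaches it, and all the others include it.

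In the TGF-beta and activin arm 15 of 19 members had a lower mean in V118M and 4 a higher mean, where 48.2% of all genes tested had a lower mean and 49.2% a higher one. The median log2 fold change was -0.06, against 0 over all genes tested, and -0.01 over the 12661 more abundant ones. The groups did not overlap in 7 members, 6 lower and 1 higher, against backgrounds of 14.8% lower and 13.2% higher. The arm's median was 0.01 in V118M replicate 1 and -0.25 in V118M replicate 2 relative to the wild-type mean, so the lower values lay mainly in replicate 2. Without V118M replicate 2 the median was by construction the same 0.01, since only replicate 1 then stands for V118M.

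**Figure D2:**
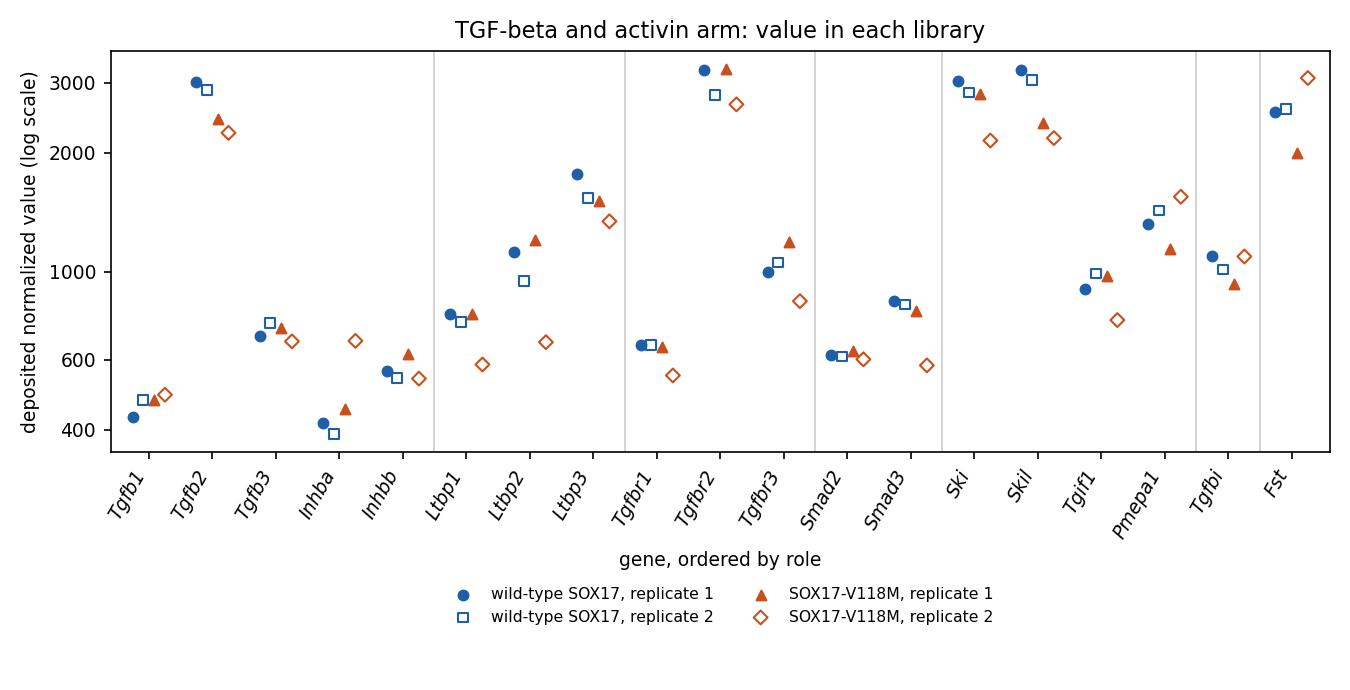
Deposited normalized value (log axis) of the 19 genes of the TGF-beta and activin arm in each of the 4 libraries, ordered by role with grey lines between roles. Both V118M values lie under both wild-type values for Tgfb2 and Skil, while Fst and Pmepa1 have V118M replicate 1 lowest and V118M replicate 2 highest.

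Among the ligands, Tgfb2 (ENSMUSG00000039239, chromosome 1, 186622792 to 186705989, GRCm38) was at 3020 and 2884 in the wild-type libraries, compared with 2427 and 2244 in the V118M ones. Both V118M libraries were under both wild-type libraries, by 20.9% on average, with a log2 fold change of -0.34 and a standard error of 0.14 (limma unadjusted p = 0.0639, adjusted p = 0.951). It ranged from -0.40 to -0.28 over the fits that left out 1 library. Its promoter is the one with the CAGACA motif printed above.

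Tgfb1, the ligand best known from wound healing and fibrosis, was at 430 and 475 against 475 and 490. Tgfb3, another isoform, was at 689 and 742 against 722 and 668. Neither ligand differed beyond the spread of its libraries, and their 95% intervals ran from -0.29 to 0.48 and from -0.42 to 0.33.

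Inhba encodes the beta A subunit of activin A (chromosome 13, 16011851 to 16031621), which also signals through SMAD2 and SMAD3. It was at 416 and 390 in the wild-type libraries, compared with 450 and 670 in the V118M ones, the only ligand of this arm with both V118M values above both wild-type values. It differed by 0.45 on the log2 scale, standard error 0.23 (limma unadjusted p = 0.108), and it was 0.16 with V118M replicate 2 left out and 0.73 with replicate 1 left out. Inhbb, which encodes the beta B subunit, was at 562 and 540 against 620 and 538, so the groups overlapped.

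The latent TGF-beta binding proteins hold secreted TGF-beta in the matrix in an inactive complex. Ltbp3 was at 1768 and 1536 against 1512 and 1342, with both V118M values just under the wild-type ones (log2 fold change -0.21, standard error 0.16). Ltbp1 was at 784 and 748 against 782 and 584, and Ltbp2 at 1124 and 949 against 1204 and 665. For both genes V118M replicate 2 was the lowest library, and V118M replicate 1 lay within the wild-type range for Ltbp1 and above it for Ltbp2. Without V118M replicate 2 the log2 fold changes of Ltbp1 and Ltbp2 were 0.03 and 0.22.

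The log2 fold changes of the receptors were all smaller than their standard errors. Tgfbr1, the signalling type I kinase, was at 654 in each wild-type library against 646 and 548 in V118M. Both V118M values of Tgfbr1 were lower, with a log2 fold change of -0.14 and a standard error of 0.16. Without V118M replicate 2 its log2 fold change was -0.02. Tgfbr2, the ligand-binding type II kinase, was at 3224 and 2796 against 3252 and 2648, with a 95% interval of -0.49 to 0.42. The co-receptor Tgfbr3 (betaglycan), which presents TGF-beta2 to the kinases, was at 1002 and 1057 against 1193 and 844. For Tgfbr2 and Tgfbr3 the V118M values lay on either side of the wild-type pair.

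Smad2, a signal transducer of this arm, was nearly constant, at 618 and 612 against 630 and 602 (log2 fold change 0.002, 95% interval -0.36 to 0.36). Smad3, its partner in binding DNA, was at 844 and 828 against 797 and 581. Both V118M values of Smad3 were the lower ones, but the log2 fold change of -0.30 had a standard error of 0.20 and was -0.07 without V118M replicate 2.

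Skil encodes SnoN, a repressor that binds SMADs and is itself induced by TGF-beta as negative feedback. It had the smallest p of all members (ENSMUSG00000027660, chromosome 3, 31095058 to 31122577), at 3232 and 3046 in the wild-type libraries, compared with 2372 and 2177 in the V118M ones, or 3139 ± 132 against 2274.5 ± 138 (SD, n = 2 each). All V118M values were under all wild-type values, by 27.6% on average, and the gap was larger than the spread within either group. The log2 fold change of -0.47 had a standard error of 0.15 (limma unadjusted p = 0.0231, adjusted p = 0.951), and ranged from -0.53 to -0.40 over the fits that left out 1 library. Each of these fits leaves 1 library in a group, so no p-value is given from them.

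The related repressor Ski was at 3037 and 2836 against 2814 and 2146, lower in both V118M libraries, with differences from the wild-type mean of -0.06 and -0.45 log2 units. Tgif1, a homeodomain corepressor of SMAD2 and SMAD3, was at 904 and 991 against 976 and 756. Pmepa1, a TGF-beta target that keeps SMAD2 and SMAD3 from the receptor, was at 1320 and 1429 against 1140 and 1548. The values of Tgif1 and Pmepa1 overlapped between groups, with the 2 V118M libraries on opposite sides of the wild-type mean.

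Tgfbi, a matrix protein named for its induction by TGF-beta, was at 1094 and 1014 against 934 and 1094. Follistatin (Fst), a secreted protein that neutralizes activin and some BMPs, was at 2536 and 2574 in the wild-type libraries, compared with 1994 and 3086 in the V118M ones. The wild-type values of Fst were within 1.01-fold of each other, while V118M replicate 2 was 1.55-fold above V118M replicate 1. Its group difference of -0.04 therefore had a standard error of 0.24, and it was -0.36 with V118M replicate 2 left out and 0.27 with replicate 1 left out.

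In the BMP arm 13 of 22 members had a lower mean in V118M and 8 a higher one, and Fstl1 was tied. Of all genes tested, 48.2% had a lower mean and 49.2% a higher one. The arm's median log2 fold change was -0.05, against 0 over all genes tested, and it was 0.01 without wild-type replicate 1. The groups did not overlap in 5 members, 4 lower (Smad6, Acvr1, Bmp6 and Nog) and 1 higher (Bmp7). That is 22.7% of the arm, against 28% of all genes tested.

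**Figure D3:**
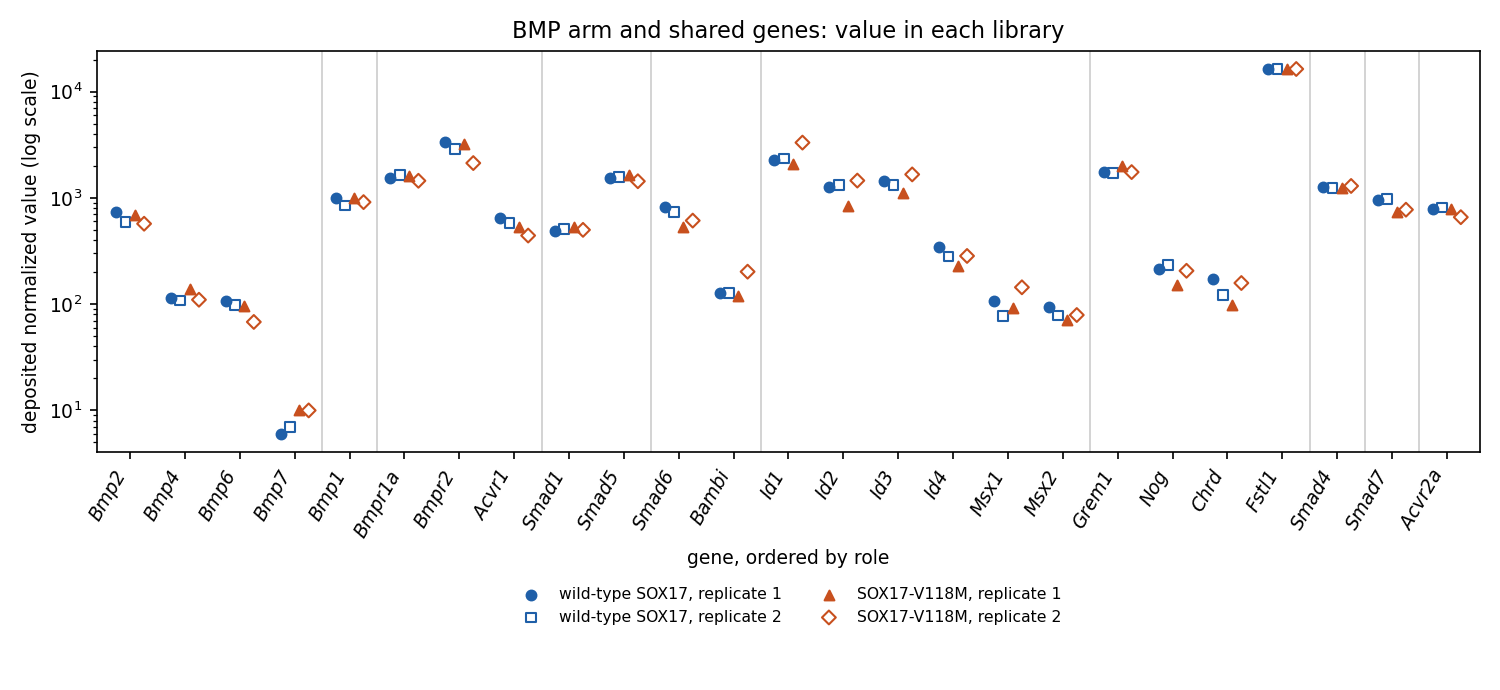
Deposited normalized value (log axis) of the 22 genes of the BMP arm and the 3 shared genes in each of the 4 libraries, ordered by role with grey lines between roles. Smad6 and Smad7 have both V118M values under both wild-type values, and Id1, Id2, Id3 and Bambi have V118M replicate 1 lowest and V118M replicate 2 highest.

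Of the ligands, Bmp4, the one most used to induce mesoderm and to support embryonic stem cells, was at 113 and 108 in the wild-type libraries, compared with 138 and 110 in the V118M ones. Bmp2, its closest relative, was at 732 and 592 against 693 and 571. The groups overlapped for both, and the log2 fold changes were 0.16 and -0.07, with standard errors of 0.22 and 0.19.

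Bmp6 was at 107 and 98 against 97 and 68, so V118M replicate 1 was within 1 unit of a wild-type library and V118M replicate 2 was the low one. Bmp7 was at 6 and 7 against 10 and 10, near the bottom of the scale, and its log2 fold change of 0.56 had a 95% interval of -0.62 to 1.73. Bmp1, which despite its name is a metalloprotease that cleaves procollagen and the antagonist chordin, was at 1004 and 849 against 1004 and 912.

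Of the receptors, Acvr1 (ALK2, a type I receptor; chromosome 2, 58388644 to 58567157) was at 642 and 582 in the wild-type libraries, compared with 535 and 442 in the V118M ones. Both V118M libraries were lower, by 20.4% on average, with a log2 fold change of -0.33 and a standard error of 0.17 (limma unadjusted p = 0.109). Bmpr1a, the type I receptor ALK3, was at 1550 and 1636 against 1616 and 1448. The type II receptor Bmpr2 was at 3324 and 2892 against 3208 and 2125, with only V118M replicate 2 outside the wild-type range. Without that library the log2 fold change of Bmpr2 was 0.05.

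The BMP-activated SMADs did not separate the groups. Smad1 was at 489 and 506 against 536 and 500, and Smad5 at 1544 and 1571 against 1636 and 1433. Their 95% intervals ran from -0.31 to 0.43 and from -0.40 to 0.35.

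Smad6, the inhibitory SMAD that blocks SMAD1 and SMAD5 and is induced by BMP as feedback (ENSMUSG00000036867, chromosome 9, 63953076 to 64022059), was at 812 and 735 in the wild-type libraries, compared with 536 and 611 in the V118M ones. This was 773.5 ± 54.4 against 573.5 ± 53 (SD, n = 2 each), so the groups were separated by more than either spread. The log2 fold change of -0.43 had a standard error of 0.16, or 25.9% lower (limma unadjusted p = 0.0387, adjusted p = 0.951), and -0.53 to -0.34 with 1 library left out. Its unadjusted limma p was 0.0533 after a trend on length and GC content was taken out. Smad6 carries the GTCTAGAC palindrome at its start.

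Bambi, a receptor-like protein without a kinase that damps both arms, was at 128 in each wild-type library against 120 and 202 in V118M. Its difference rested on V118M replicate 2: the log2 fold change was 0.65 with V118M replicate 1 left out and -0.09 with replicate 2 left out.

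The ID genes encode helix-loop-helix proteins that bind and block differentiation factors and are direct BMP targets. Id1 was at 2288 and 2348 in the wild-type libraries, compared with 2063 and 3311 in the V118M ones. Id2 was at 1265 and 1325 against 834 and 1454. Id3 was at 1454 and 1330 against 1106 and 1662. In all 3 genes V118M replicate 1 was the lowest library and V118M replicate 2 the highest, 1.6-fold, 1.74-fold and 1.5-fold above replicate 1, while the wild-type libraries were within 1.03-fold, 1.05-fold and 1.09-fold of each other. The group differences of 0.17, -0.23 and -0.04 were smaller than their standard errors of 0.25, 0.28 and 0.23.

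Id4 was at 345 and 281 against 230 and 284, so it overlapped narrowly, with a log2 fold change of -0.28. The homeobox gene Msx1, a BMP target of limb and craniofacial tissue, was at 108 and 77 against 92 and 144, and its relative Msx2 was at 93 and 78 against 71 and 79. The groups overlapped in all 6 targets.

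The secreted antagonists bind BMPs outside the cell. Noggin (Nog) was at 215 and 233 in the wild-type libraries, compared with 150 and 206 in the V118M ones, lower in both, with differences from the wild-type mean of -0.57 and -0.12 log2 units. Chordin (Chrd) was at 172 and 122 against 98 and 158, and Gremlin (Grem1), which blocks BMP2 and BMP4, at 1748 and 1707 against 2010 and 1748. Fstl1, a follistatin-like glycoprotein that antagonizes BMP4, was at 16312 in all 4 libraries. It thus held the same place in the common distribution of every library, and limma's standard error is not given for a gene without spread.

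Of the shared genes, Smad7, the inhibitory SMAD that acts on both receptor classes, was at 954 and 982 in the wild-type libraries, compared with 742 and 774 in the V118M ones. Its 968 ± 19.8 against 758 ± 22.6 (SD, n = 2 each) were separated by far more than the spread within groups, and the log2 fold change of -0.35 had a standard error of 0.14 (limma unadjusted p = 0.051, adjusted p = 0.951). The range over the fits that left out 1 library was narrow, -0.38 to -0.32. The unadjusted limma p was 0.136 after the same trend was taken out, against 0.0045 with no filter on low values. Without that filter 6.44% of all genes tested had an unadjusted limma p under 0.05, against 4.01% in the main fit.

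Smad4, the common partner, was at 1254 and 1242 against 1247 and 1294 and was among the steadiest members. Acvr2a, a type II receptor for activins and BMPs, was at 782 and 812 against 779 and 658. Its V118M replicate 1 was 3 units under a wild-type library.

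The V118M libraries were then set against each other, since they often lay on opposite sides of wild type. V118M replicate 1 was under and replicate 2 over both wild-type values in 6 members (Id1, Id2, Id3, Bambi, Fst and Pmepa1), or 13.6%, against 13% of all genes tested. The opposite order was found in another 6 (Inhbb, Ltbp2, Tgfbr2, Tgfbr3, Smad2 and Smad5), or 13.6% against 10.7%. Both V118M libraries were below the wild-type mean in 14 members, or 31.8% against 24.1%, and both above it in 6, or 13.6% against 23.7%. In the TGF-beta and activin arm V118M replicate 2 was below replicate 1 in 14 of 19 members, against 45.1% of all genes. In the BMP arm it was below in 10 and above in 10 of 22.

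**Figure D4:**
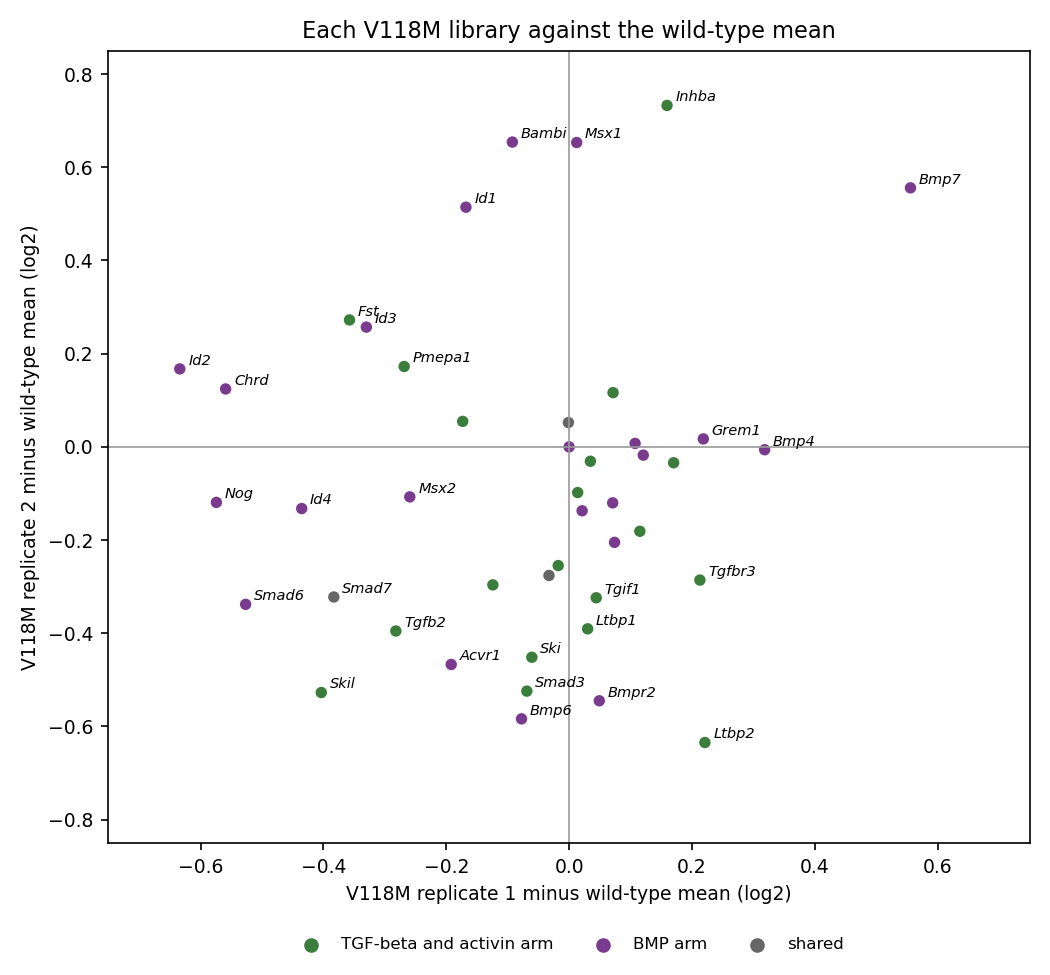
Difference of each gene from the wild-type mean on the log2(value + 1) scale in V118M replicate 1 (horizontal axis) and V118M replicate 2 (vertical axis), one point per gene coloured by arm, with the genes farthest from 0 named. Skil, Smad6, Smad7 and Tgfb2 lie low in both libraries, and the ID genes Id1, Id2 and Id3 lie low in replicate 1 and high in replicate 2.

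The members differ in transcript length, and V118M replicate 2 deviated along it. Its deviation from the mean of the other 3 libraries had a Spearman's rho with transcript length of -0.501 across 43 members and -0.458 across 12635 more abundant genes. This is a correlation across genes of 1 library, which are not independent replicates. The short transcripts Id1 (934 bases) and Id3 (1278 bases) were 0.57 and 0.37 log2 units above the other libraries. The long transcripts Ltbp2 (6769 bases) and Bmpr2 (12899 bases) were below them, with log2 differences of -0.71 and -0.56. The part of transcript length in the results was not tested beyond this. After a trend on length and GC content was taken out of every library, the median of the BMP arm was 0.02 and that of the TGF-beta and activin arm -0.04. In V118M replicate 1, whose reference includes replicate 2, rho was 0.455 across the same members. For wild-type replicates 1 and 2, whose references also include it, rho was 0.102 and 0.048 there. Across the 12635 genes rho was 0.381 in V118M replicate 1, and 0.39 and 0.078 in wild-type replicates 1 and 2. Within the arms, rho of V118M replicate 2 was -0.307 (TGF-beta and activin) and -0.458 (BMP).

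**Figure D5:**
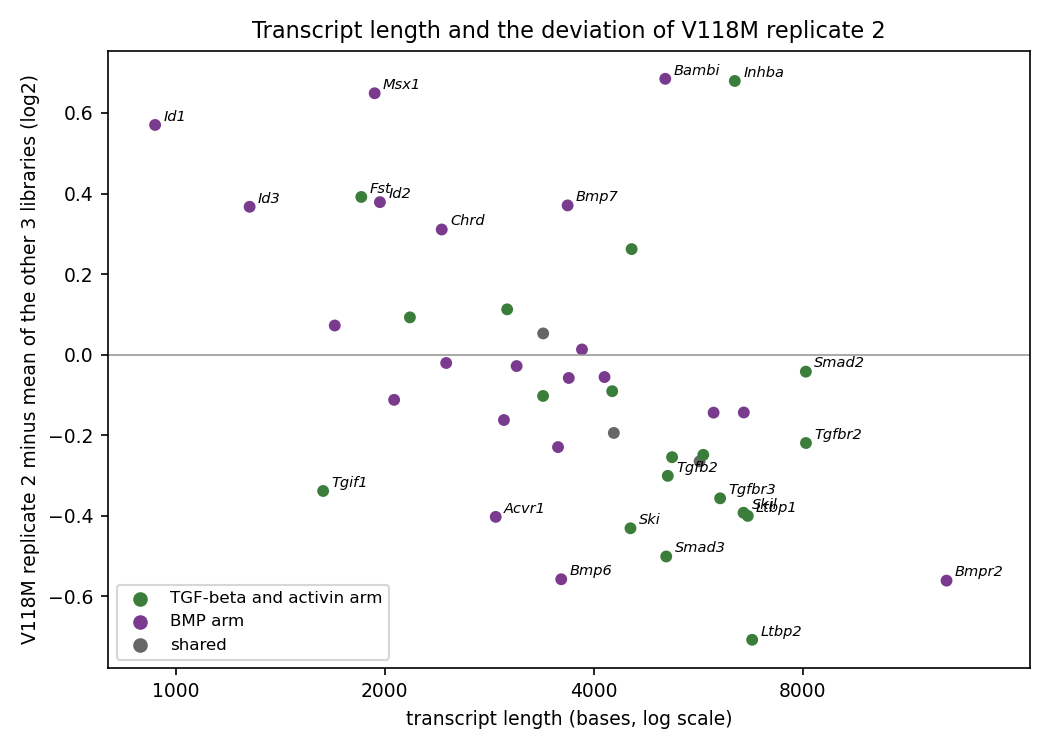
Deviation of V118M replicate 2 from the mean of the other 3 libraries (log2, vertical axis) against transcript length in bases (log axis) for 43 genes coloured by arm, Fstl1 left out. Short transcripts such as Id1 and Id3 lie above 0 and long ones such as Ltbp2 and Bmpr2 below it, while Inhba and Bambi are long and high.

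Other genes of the pathways were taken from separate lists. These lists were chosen with earlier results of these data known, so their shares beside those of all genes are descriptive. Of 32 tested genes of the TGF-beta and activin pathway outside the members, 0 passed at an adjusted p of 0.05 and 2 had an unadjusted limma p under 0.05, both lower, or 6.25% against 4.01% of all genes tested, with a list median of -0.16. A log2 fold change of at least 0.5 in size was found in 10 of the 32, against 20.8% of all genes tested. The 95% interval lay within 1 log2 unit either way for 46.9% of the 32, against 51.4% of all genes tested. Acvrl1 (ALK1), a type I receptor for TGF-beta and BMP9, was at 322 and 346 in the wild-type libraries, compared with 220 and 215 in the V118M ones (log2 fold change -0.62, standard error 0.16, limma unadjusted p = 0.0113). The integrin subunit Itgav, whose dimers release TGF-beta from its latent complex, was at 3410 and 3122 against 2616 and 2030 (log2 fold change -0.50). Both were lower in both V118M libraries. The Nodal co-receptor Tdgf1 was at 83 and 126 against 188 and 149, and the stress-induced ligand Gdf15 at 26 and 49 against 16 and 19. Nodal itself was listed at 0 in all 4 libraries.

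Of 28 tested BMP pathway genes outside the members 0 passed at an adjusted p of 0.05, and 3 had an unadjusted limma p under 0.05, 2 higher and 1 lower, or 10.7% against 4.01% of all genes tested, with a median of -0.10. A log2 fold change of at least 0.5 in size was found in 9 of the 28, against 20.8% of all genes tested. The lower one was Chrdl1, a chordin-like BMP antagonist, at 4608 and 4357 against 3540 and 2531 (log2 fold change -0.58). The higher ones were both low on the scale: Bmp3, an atypical BMP that opposes the others, at 28 and 25 against 40 and 60, and Fstl4 at 3 and 0 against 6 and 12. Crim1, a membrane protein that tethers BMPs, was at 1113 in each wild-type library against 948 and 678 in V118M.

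Genes known to respond to TGF-beta had a median of -0.01 over 21 tested genes, with 0 passing at an adjusted p of 0.05 and 1 at an unadjusted limma p under 0.05, or 4.76%, near the 4.01% of all genes tested. That one was Postn, a matrix protein, at 1263 and 1098 against 1889 and 1744 (log2 fold change 0.62). Timp1, a protease inhibitor, was at 1832 and 2183 against 2386 and 3492, and the smooth muscle actin Acta2 at 2172 and 2204 against 2364 and 2863. The transcription factor Bhlhe40 was at 5820 and 6496 against 5082 and 4448. Ctgf, a classical target chosen here after its values were seen, was at 2125 and 2231 against 1906 and 2498, so the groups overlapped.

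Genes known to respond to BMP had a median of -0.14 over 15 tested genes, with 0 passing at an adjusted p of 0.05 and 3 at an unadjusted limma p under 0.05, or 20% against 4.01% of all genes tested. The groups did not overlap in 53.3% of them, 7 lower and 1 higher, against 28% of all genes tested. The list was chosen with earlier results of these data known, so no conclusion is drawn from these shares. The transcription factors Gata2 and Gata3 were lower, Gata2 at 607 and 580 against 432 and 381 (log2 fold change -0.55) and Gata3 at 344 and 338 against 262 and 208 (log2 fold change -0.54). Alpl, the alkaline phosphatase of bone and of pluripotent cells, was higher, at 36 and 38 against 58 and 64 (log2 fold change 0.71). The bone regulator Runx2 was at 788 and 758 against 674 and 544.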

How the data were processed

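RNA was profiled by sequencing in 2 wild-type SOX17 and 2 SOX17-V118M libraries. Per the labels' protocols, TRIzol was used for extraction and a TruSeq Nano kit for the libraries. The submitters' processing notes list RSEM, Bowtie2, DESeq2, FastQC and the mm10 build. Roles and versions are not given in the sources used here. Each deposited value is a score: the sorted columns were identical at 76.7% of ranks and differed by at most 122, so the authors' values are treated as quantile-normalized and not as raw reads.

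Values were transformed as log2(value + 1). The filter kept 19547 genes that reached 1 in 2 or more libraries. A limma model (version 3.58.1, R 4.3.3) held the group alone and used the trend and robust options, and its two-sided p-values were adjusted over all genes tested by the Benjamini-Hochberg method. The fit was tested on simulated data. The alternatives were pseudocounts of 0.1 and 5, no filter, a minimum of 10, no trend or robust options, a replicate block, each library left out, and removal of a length and GC trend (splines, 4 degrees of freedom each). Transcripts were matched to GENCODE M21 of GRCm38 (22304 found). The strand setting of the read assignment is unstated.

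The members and lists were chosen with earlier results of these data known. All 44 members could be named. Library values were to be given for members with a p under 0.05, or with groups that did not overlap and a log2 fold change of at least 0.5 in size, and as a description for the others. Of each further pathway list the 4 genes with the smallest p were named.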

Additional observations from a re-analysis of the deposited data

How the results depend on the processing

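No member passed at an adjusted p of 0.05 in any of the 11 alternatives, and the lowest adjusted p of a member ranged from 0.12 to 1. Over all genes 0 passed in 10 of them and 3 with the replicate block. The labels do not say that replicate numbers mark a shared batch. Deviations of same-numbered libraries correlated at 0.016 over all genes tested and 0.303 over the more abundant ones, so the block is given here only. With the replicate block 1204 genes (6.16%) had an unadjusted p under 0.05, against 784 without it, and 14 of the further pathway genes against 9. No filter gave 1441 genes (6.44%), 2 members of the TGF-beta and activin arm, 2 of the BMP arm and 1 shared member. A pseudocount of 0.1 or the stricter filter gave 1 shared member (3.69% and 3.63% of all genes), and limma without trend and robust options 5 further pathway genes (5.32% of all genes). With the length and GC trend removed there were 0 members of the BMP arm (4.89% of all genes).

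Leaving out 1 library leaves a group with 1 sample, assumed to vary like the other group. The count of genes with an unadjusted p under 0.05 then ran from 221 (without wild-type replicate 1) to 5096 (without V118M replicate 1). It ran from 0 to 7 in the TGF-beta and activin arm, 0 to 3 in the BMP arm, 0 to 2 for the shared genes and 1 to 21 for the further pathway genes. The 7, the 2 shared genes and the 21 arose without V118M replicate 1, where 26.8% of all genes tested were counted, and the 3 without V118M replicate 2, where 12% were. The counts of 0 and 1 arose without wild-type replicate 1, where 1.16% were, and those of 0 also without wild-type replicate 2, where 1.42% were. The median log2 fold change ran from -0.25 to 0.014 in the TGF-beta and activin arm and from -0.085 to 0.0139 in the BMP arm, and was 0.02 in the BMP arm with the length and GC trend removed.

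Changing the filter or limma options, or adding the replicate block, left each member's log2 fold change unchanged, and neither pseudocount turned a member. Leaving out 1 V118M library gives the sign of the other, so direction can hold only where both lie on 1 side. Both were below the wild-type mean in 14 members (31.8% against 24.1% of all genes tested) and above it in 6 (13.6% against 23.7%). The share of all genes that kept direction was not computed. Direction was the same in all 11 alternatives for these 20 members, 14 lower and 6 higher. With the length and GC trend removed it turned for Tgfb3 (0.0111), Tgfbr2 (0.13), Tgfbr3 (0.093), Pmepa1 (0.0435), Bmpr1a (0.0354) and Smad5 (0.0883). It turned when 1 library was left out for 23 members, over these ranges: Tgfb3 -0.098 to 0.014, Inhbb -0.0341 to 0.17, Ltbp1 -0.39 to 0.0302, Ltbp2 -0.63 to 0.22, Tgfbr2 -0.18 to 0.12, Tgfbr3 -0.29 to 0.21, Smad2 -0.0308 to 0.0347, Tgif1 -0.32 to 0.0442, Pmepa1 -0.27 to 0.17, Tgfbi -0.17 to 0.0547, Fst -0.36 to 0.27, Bmp2 -0.22 to 0.0874, Bmp4 -0.0061 to 0.32, Bmp1 -0.0693 to 0.17, Bmpr1a -0.14 to 0.0212, Bmpr2 -0.54 to 0.0492, Smad5 -0.12 to 0.071, Bambi -0.0924 to 0.65, Id1 -0.17 to 0.51, Id2 -0.63 to 0.17, Id3 -0.33 to 0.26, Chrd -0.56 to 0.12, Smad4 -0.0011 to 0.0522. The cause of these shifts was not tested. Depth is unknown, so what it limits could not be computed.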
